A study of Homo sapiens with 4 samples.

Results

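The subunits of respiratory complexes II to V and the electron carrier cytochrome c were followed as mRNAs in a pull-down of the RNA demethylase ALKBH5. Members were the gene symbols of the succinate dehydrogenase (SDHA to SDHD), UQCR, COX4 to COX8 and ATP5 series, without hyphenated names and pseudogene endings, with CYC1 and CYCS added. The rule took 50 of the 26830 gene symbols in the deposited table and used no measured value. There were 4 members of complex II, 10 of complex III, 17 of complex IV and 18 of complex V, beside CYCS.

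The cells were NOMO-1, an established line from an acute myeloid leukaemia of the monocytic kind. All 4 libraries came from NOMO-1 cells that overexpressed 3xFlag-tagged ALKBH5 from a lentivirus, had been selected with puromycin and sorted for GFP, and were UV crosslinked. Input 1 and input 3 hold RNA with no antibody step, and Flag-IP 1 and Flag-IP 3 hold RNA recovered with an anti-Flag antibody. The libraries of a group are not stated to come from separate cultures, so p-values measure only the spread between libraries, which may be technical. For TPM as deposited, this spread was pooled over all genes of similar level and not taken from each gene's own libraries. A pull-down from cells without the tag was not analysed here, so the background of the antibody step was not measured.

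Complex II passes electrons from succinate to ubiquinone, complex III passes them on to cytochrome c, and complex IV hands them to oxygen. Complexes III and IV pump protons across the inner mitochondrial membrane, and complex V, the ATP synthase, uses the proton gradient to make ATP. The subunits listed here are encoded in the nucleus, translated in the cytosol or at the mitochondrial surface, and imported. ALKBH5 removes the methyl group of N6-methyladenosine (m6A), an internal mark of mRNA.

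Levels are in TPM, which is scaled for transcript length, so levels can be set side by side between genes. TPM sums to the same total in every library and keeps no read depth, so no counting error can be given. Structural RNAs such as ribosomal and small nuclear RNA made up 96.3% to 96.8% of the TPM in the inputs and 92.5% to 93.6% in the Flag-IP libraries. The number of genes at 1 TPM or more was 4076 and 4543 in input 1 and 3 and 7970 and 7249 in Flag-IP 1 and 3. The median tested gene had 2.38 times as much TPM in the Flag-IP mean as in the input mean. ALKBH5 itself, the bait, stood at 4.62 and 4.91 TPM in input 1 and 3 and at 10.1 and 8.91 TPM in Flag-IP 1 and 3. It was higher in log2(TPM + 1) by 0.86 (limma, adjusted p = 0.000109). After each library was scaled to its typical tested gene, both Flag-IP libraries of ALKBH5 lay below both inputs, and the difference of -0.24 ± 0.11 did not pass (limma, adjusted p = 0.124). Of 10 myeloid markers 5 reached a mean of 1 TPM, led by CTSG, while MPO, LYZ, CSF1R and ITGAM stayed below it and CD14 was listed at 0 in every library. Of 19 markers of lymphoid, erythroid, epithelial and fibroblast cells 12 were listed at 0 in every library, and NKG7 was the single one at a mean of 1 TPM. The summed TPM of these 19 was 12.1 and 14.9 in the inputs and 22.4 and 24.2 in the Flag-IP libraries.

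Some members have near-copies, and their reads can be divided between copies in ways the deposited values do not show. UQCRH and UQCRHL are shown because they carried some of the largest differences found and are nearly the same coding sequence. UQCRH lies at chr1:46303631-46316776 on the plus strand and UQCRHL at chr1:15807169-15809348 on the minus strand (GRCh38, GENCODE 29). Both coding sequences have 273 bases without the stop codon, and capitals mark the 4 positions that differ.
UQCRH: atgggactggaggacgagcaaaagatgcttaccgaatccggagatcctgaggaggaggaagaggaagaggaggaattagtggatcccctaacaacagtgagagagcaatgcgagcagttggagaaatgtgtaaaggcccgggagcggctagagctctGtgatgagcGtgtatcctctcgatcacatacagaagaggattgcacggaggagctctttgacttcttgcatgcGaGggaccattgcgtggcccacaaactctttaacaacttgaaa
UQCRHL: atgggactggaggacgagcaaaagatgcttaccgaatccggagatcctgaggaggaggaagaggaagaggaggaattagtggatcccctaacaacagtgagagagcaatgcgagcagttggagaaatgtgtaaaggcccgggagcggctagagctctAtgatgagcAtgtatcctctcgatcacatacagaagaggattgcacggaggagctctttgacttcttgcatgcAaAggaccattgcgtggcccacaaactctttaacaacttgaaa
These coding sequences share 98.5% of their positions, and 88 of 91 codons give the same amino acid. Of the words of 50 bases in the UQCRH transcript with the longest coding sequence, 29.4% also occur in UQCRHL.

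ATP5G1, ATP5G2 and ATP5G3 are shown as the opposite case, 3 genes whose mRNAs give the same mature c subunit of the ATP synthase rotor but differ at many bases. The last 225 coding bases before the stop codon are printed, from chr17:48892765-48895871 (plus), chr12:53632726-53677408 (minus) and chr2:175176258-175184607 (minus), with capitals at the 52 positions that differ among them.
ATP5G1: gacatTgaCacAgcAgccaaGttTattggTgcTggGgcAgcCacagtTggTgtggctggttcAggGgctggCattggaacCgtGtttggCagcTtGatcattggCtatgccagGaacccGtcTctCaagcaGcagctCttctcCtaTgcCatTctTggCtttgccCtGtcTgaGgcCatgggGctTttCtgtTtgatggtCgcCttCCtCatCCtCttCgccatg
ATP5G2: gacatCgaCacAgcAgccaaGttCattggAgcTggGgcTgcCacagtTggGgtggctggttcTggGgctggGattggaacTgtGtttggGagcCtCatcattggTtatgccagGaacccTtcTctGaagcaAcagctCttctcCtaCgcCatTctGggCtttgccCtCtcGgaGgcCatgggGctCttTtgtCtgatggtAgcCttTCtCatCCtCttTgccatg
ATP5G3: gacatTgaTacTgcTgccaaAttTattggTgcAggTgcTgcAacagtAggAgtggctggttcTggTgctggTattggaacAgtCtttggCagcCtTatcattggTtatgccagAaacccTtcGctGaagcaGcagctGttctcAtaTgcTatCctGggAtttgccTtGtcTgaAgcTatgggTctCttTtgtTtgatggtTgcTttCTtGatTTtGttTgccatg
All 75 codons give the same amino acid in the 3 genes, while 27 of the 75 are identical in all bases. ATP5G1 and ATP5G2 share 88.9% of these positions, and each shares 81.3% with ATP5G3. No more than 5.29% of the 50-base words of any of these 3 genes occur in another gene.

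Most subunit mRNAs had about double the TPM in the Flag-IP libraries, as did most other genes. Of the 50 members, 41 had a mean of at least 1 TPM and were tested with limma on log2(TPM + 1), a scale that understates the change of low genes. Of these 41, 35 were higher in Flag-IP at an adjusted p below 0.05, against 86.6% of the 6487 genes tested, and 0 were lower, against 0.74%; the counts at an unadjusted p below 0.05 were also 35 and 0. In TPM both Flag-IP libraries were above both inputs for 38 members (93.1% of all tested genes), 2 overlapped and 1, ATP5D, was below (1.09% of all tested genes). The median ratio of the Flag-IP mean to the input mean was 2.07 over the members, and single members ranged from 0.927 to 3.19. Summed over all members the TPM was 392.8 and 447.2 in input 1 and 3 and 919 and 780.2 in Flag-IP 1 and 3. The 6 members that did not pass were UQCRHL, UQCR11, UQCRH and UQCRB of complex III, COX5B of complex IV and ATP5D of complex V.

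**Figure D1:**
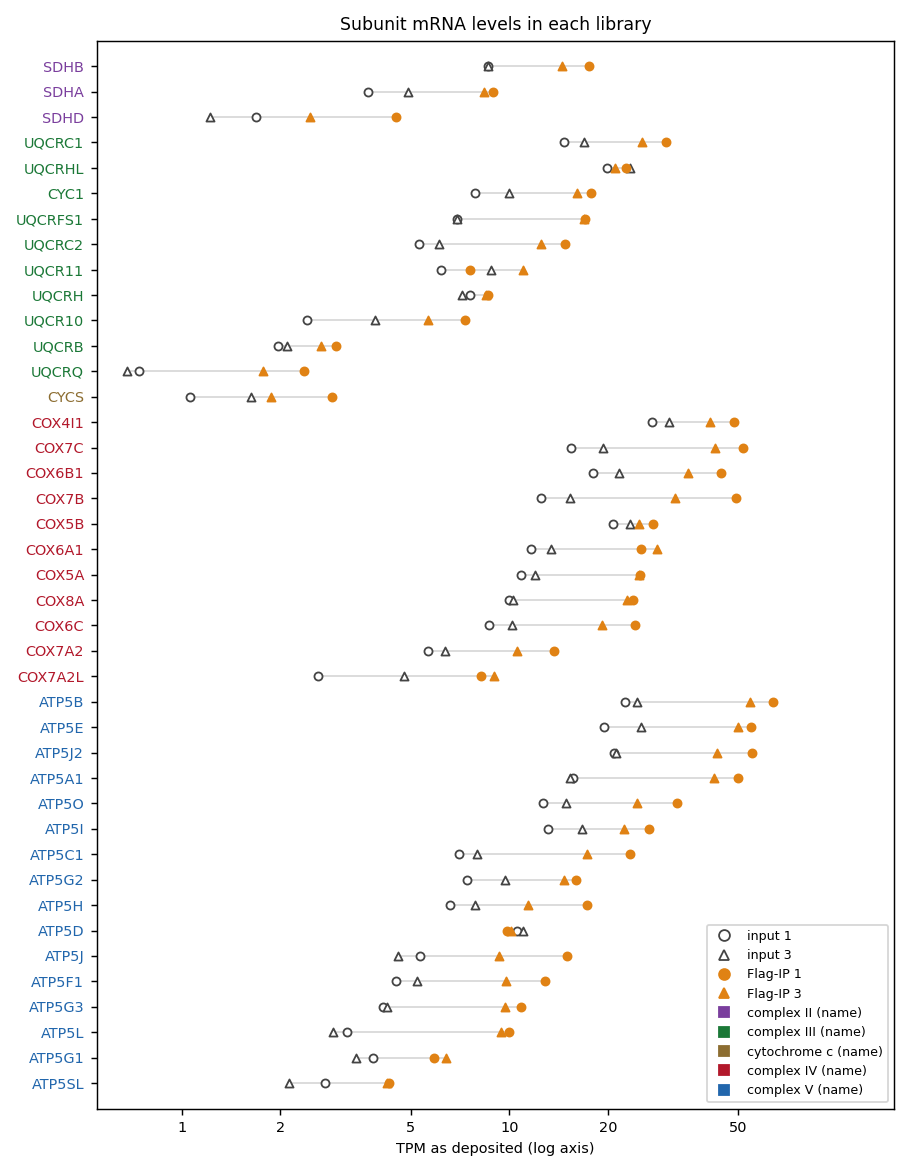
TPM of the 41 tested members (log axis), 1 row per gene, with open grey symbols for the inputs and filled orange symbols for the Flag-IP libraries; circles are replicate 1, triangles replicate 3, and gene names are coloured by complex. Orange lies to the right of grey in 38 rows, while the 4 symbols stay close together for UQCRHL, UQCRH, COX5B and ATP5D.

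The tests were repeated after each library was divided by the median of its ratios to each gene's geometric mean over all libraries. The median was taken over tested genes above 0 in every library, which sets the typical tested gene to no change. This median-ratio scale moved the median difference of all tested genes from 0.84 to -0.01 log2 units. On it, 0 members were higher in Flag-IP by limma at an adjusted p below 0.05, against 22.3% of all tested genes, and 11 were lower, against 18.6%; at an unadjusted p below 0.05 there were 1 and 13. These shares depend on level: 2203 of the 6487 tested genes had an input mean under 1 TPM and passed the filter through Flag-IP, as did 1 of the 41 members, UQCRQ. Of those 2203 genes 39.9% were higher and 1.68% lower, and of the other 4284 genes 13.2% were higher and 27.3% lower; this split was made after the values were seen, and the input level is itself part of the difference. Both Flag-IP libraries were above both inputs for 6 members, UQCRQ among them (37% of all tested genes) and below both for 22 (37.1%). The members' median difference was -0.16, within a range of -1.25 to 0.34.

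The 11 members that fell relative to the typical gene were SDHB of complex II, UQCRHL, UQCRH, UQCR11, UQCRB and UQCRC1 of complex III, COX5B and COX4I1 of complex IV, and ATP5D, ATP5I and ATP5G2 of complex V. The count depended on the scaling. The shares of all tested genes called under the alternatives are not given, so the counts that follow have no background beside them. With structural RNAs left out 6 members were higher and 8 lower, but there the median of all tested genes was itself 0.24; with quantile scaling the counts were 5 and 5. With a filter at 5 TPM, which 34 members passed, they were also 5 and 5, and the members' median was 0.060. The lower count was 5 without Flag-IP 1 and 0 when every row of the table was tested, where 14 members were lower at an unadjusted p below 0.05. ATP5D, UQCRHL, COX5B and UQCRH passed as lower in 14 of 15 alternatives, the exception being the fit without a filter. Over the alternatives, 15 for most members and 14 for those under 5 TPM, 14 members stayed negative, 5 stayed positive and 21 took both signs, with UQCRQ left aside.

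**Figure D2:**
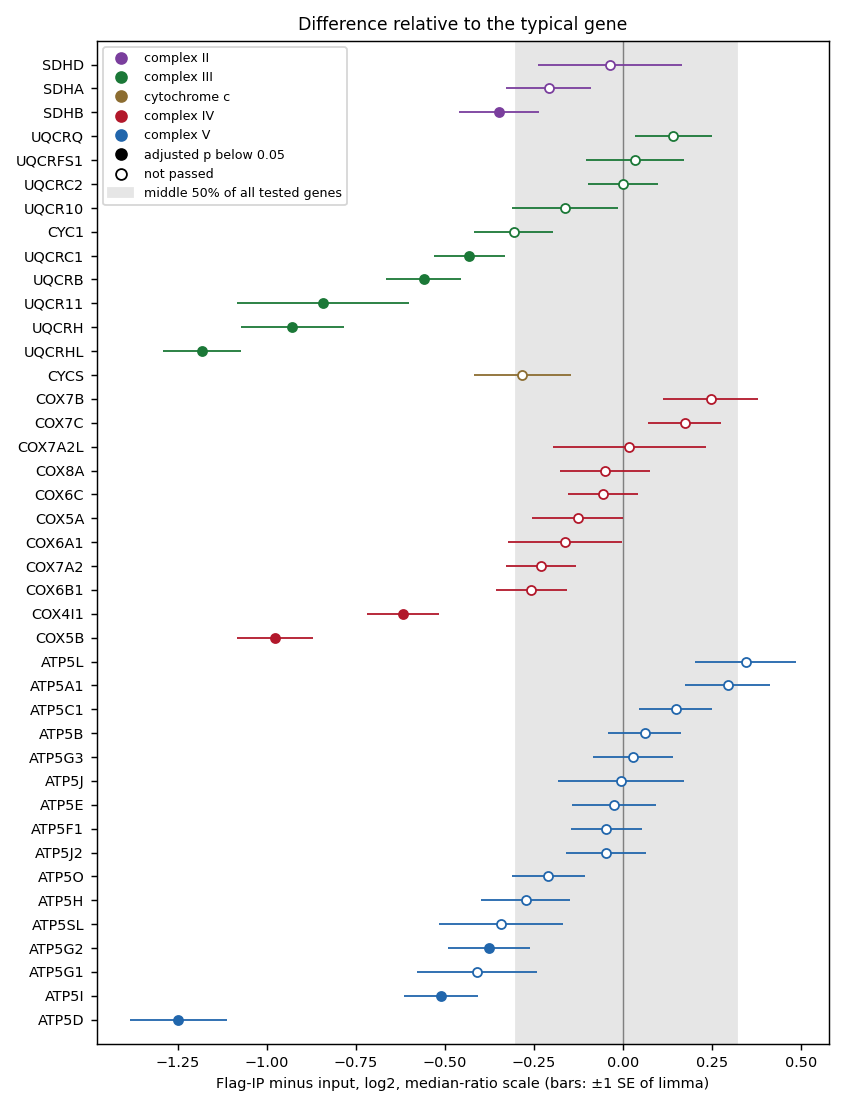
Flag-IP minus input for the 41 tested members on the median-ratio scale (log2 units, bars are 1 SE of limma), ordered within each complex; filled points passed an adjusted p below 0.05 and the grey band holds the middle 50% of all 6487 tested genes. The 11 filled points all lie to the left of 0, and those of ATP5D, UQCRHL, COX5B and UQCRH lie near or below -0.93.

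Complex II is the only complex of the 4 that also works in the citric acid cycle. Its mRNAs rose in TPM in Flag-IP with the typical gene. Relative to it 1 of the 3 tested fell, beside 18.6% of all tested genes. Of tested genes with an input mean of at least 1 TPM, as these 3 had, 27.3% fell. SDHB, the iron-sulfur subunit, had 8.58 and 8.64 TPM in input 1 and 3 and 17.5 and 14.5 TPM in Flag-IP 1 and 3. The groups did not overlap, and the increase was smaller than that of the typical gene, with a median-ratio difference of -0.35 ± 0.11 (SE, n = 2 and 2; limma, adjusted p = 0.0498). That call lies at the threshold, passed in 3 of 15 alternatives and did not pass with any of the 4 libraries left out (adjusted p from 0.0626 to 0.225). SDHA, the flavin-carrying catalytic subunit, had 3.71 and 4.90 TPM in the inputs and 8.94 and 8.36 TPM in Flag-IP. Its median-ratio difference of -0.21 ± 0.12 did not pass (limma, adjusted p = 0.202). SDHD, a membrane anchor, had 1.69 and 1.22 TPM in the inputs and 4.51 and 2.46 TPM in Flag-IP. The Flag-IP libraries of SDHD were both above the inputs but far apart, and the median-ratio difference was -0.04 ± 0.20 (limma, adjusted p = 0.897). SDHC, the other anchor, was below the filter with 0.53 and 0.48 TPM in the inputs and 1.53 and 1.28 TPM in Flag-IP. Parts of the SDHA and SDHD exons, 22.3% and 27.7% of their 50-base words, also occur in other annotated genes. The median of the 3 tested genes was -0.21, but it was -0.047 without input 1 and 0.015 once a trend with transcript length was removed.

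Complex III held 5 of the 11 members that fell relative to the typical gene, and all 10 of its genes were tested. The 5 include both UQCRH and UQCRHL, near-copies whose reads can be divided either way, so they may not be separate results. Of all tested genes 18.6% fell. Of those with an input mean of at least 1 TPM, which UQCRQ alone of the 10 did not reach, 27.3% fell. UQCRHL, UQCRH, UQCR11 and UQCRB differed most. UQCRH, the acidic hinge subunit, had 7.60 and 7.15 TPM in input 1 and 3 and 8.62 and 8.51 TPM in Flag-IP 1 and 3. UQCRHL, its near-copy, had 19.8 and 23.3 TPM in the inputs and 22.8 and 21.1 TPM in Flag-IP. In TPM the Flag-IP libraries of UQCRH were slightly above the inputs and those of UQCRHL lay between them. On the median-ratio scale UQCRH differed by -0.93 ± 0.14 (limma, adjusted p = 0.00513) and UQCRHL by -1.18 ± 0.11 (limma, adjusted p = 0.00124). Since reads of these copies can be divided either way, their sum was taken as well, which was 27.4 and 30.5 TPM in the inputs and 31.4 and 29.6 TPM in Flag-IP. The sum stayed within a narrow range in all 4 libraries. TPM is scaled for length, and the UQCRHL transcript has 2180 bases against 604 for the coding transcript of UQCRH. The sum therefore also depends on how the reads were divided, which cannot be seen here. UQCR11, a small subunit encoded at chr19:1597172-1605490, had 6.17 and 8.82 TPM in the inputs and 7.58 and 11.0 TPM in Flag-IP. Its groups overlapped in TPM, and its median-ratio difference was -0.84 ± 0.24 (limma, adjusted p = 0.036). UQCRB, the subunit near the ubiquinone site, had 1.97 and 2.09 TPM in the inputs and 2.95 and 2.67 TPM in Flag-IP, with a median-ratio difference of -0.56 ± 0.11 (limma, adjusted p = 0.0093). Without Flag-IP 1 neither UQCR11, at -0.43 (limma, adjusted p = 0.105), nor UQCRB, at -0.45 (limma, adjusted p = 0.0586), passed, and without input 3 UQCR11 did not pass (limma, adjusted p = 0.0928).

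The core subunits of complex III are its largest proteins. UQCRC1, core protein 1, had 14.7 and 16.9 TPM in the inputs and 30.0 and 25.5 TPM in Flag-IP, and fell relative to the typical gene by 0.43 ± 0.10 (limma, adjusted p = 0.0174). It did not pass without input 1, input 3 or Flag-IP 1 (limma, adjusted p = 0.084, 0.0759 and 0.0834). UQCRC2, core protein 2, had 5.3 and 6.08 TPM in the inputs and 14.8 and 12.5 TPM in Flag-IP. Its Flag-IP mean was thus 2.4 times its input mean, against 1.76 times for UQCRC1. Within a library the ratio of UQCRC1 to UQCRC2 was 2.77 and 2.78 in the inputs and 2.03 and 2.04 in Flag-IP. Dividing all values of a library by the same factor does not change this ratio, while quantile scaling can. UQCRFS1, the Rieske iron-sulfur protein, had 6.90 and 6.91 TPM in the inputs and 17.0 and 17.0 TPM in Flag-IP. CYC1, cytochrome c1, had 7.85 and 9.99 TPM in the inputs and 17.7 and 16.1 TPM in Flag-IP. Both groups were separate in each case, and neither gene passed on the median-ratio scale. UQCR10, which sits beside UQCR11 in the complex, had 2.41 and 3.89 TPM in the inputs and 7.30 and 5.64 TPM in Flag-IP. UQCRQ had 0.74 and 0.68 TPM in the inputs and 2.36 and 1.77 TPM in Flag-IP; it passed the filter through its Flag-IP values alone, so its direction carries no weight. The median of the 10 genes on the median-ratio scale was -0.37, with UQCRH and UQCRHL both counted, and it stayed negative under every alternative run. CYCS, the soluble carrier between complexes III and IV, had 1.06 and 1.63 TPM in the inputs and 2.88 and 1.87 TPM in Flag-IP, a median-ratio difference of -0.28 ± 0.14 that did not pass (limma, adjusted p = 0.143).

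Complex IV, cytochrome c oxidase, had 10 of 11 tested members higher in TPM, beside 86.6% of all tested genes. Relative to the typical gene 2 members fell and 0 rose, beside 18.6% and 22.3% of all tested genes. Of tested genes with an input mean of at least 1 TPM, as all 11 had, 27.3% fell and 13.2% rose. At an unadjusted p below 0.05 the members' counts were 3 and 0. COX5B, a peripheral subunit at chr2:97646040-97648383, had 20.7 and 23.4 TPM in input 1 and 3 and 27.4 and 24.8 TPM in Flag-IP 1 and 3. COX5A, its partner subunit on the same side of the enzyme, had 10.9 and 12.0 TPM in the inputs and 25.03 and 24.9 TPM in Flag-IP. COX5A thus doubled in TPM and COX5B did not, and the ratio of COX5B to COX5A was 1.90 and 1.95 in the inputs and 1.10 and 0.999 in Flag-IP. On the median-ratio scale COX5B fell by 0.98 ± 0.11 (limma, adjusted p = 0.00186). COX4I1, the regulatory subunit that binds ATP, encoded at chr16:85798633-85807044, had 27.2 and 30.7 TPM in the inputs and 48.6 and 41.1 TPM in Flag-IP, and fell by 0.62 ± 0.10 relative to the typical gene (limma, adjusted p = 0.00596). It passed as lower in 12 of 15 alternatives.

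The small subunits COX7C and COX7B stood at the other end of complex IV. COX7C had 15.4 and 19.3 TPM in the inputs and 51.7 and 42.5 TPM in Flag-IP, with a median-ratio difference of 0.17 ± 0.10 that did not pass (limma, adjusted p = 0.22). COX7B, encoded on the X chromosome, had 12.5 and 15.3 TPM in the inputs and 49.1 and 32.0 TPM in Flag-IP, with a difference of 0.25 ± 0.13 that did not pass (limma, adjusted p = 0.185). Both were positive in all 15 alternatives. COX6B1, a subunit that faces the intermembrane space, had 18.02 and 21.7 TPM in the inputs and 44.4 and 35.0 TPM in Flag-IP, and its difference of -0.26 ± 0.10 did not pass (limma, adjusted p = 0.0831). COX6A1 had 11.7 and 13.4 TPM in the inputs and 25.3 and 28.2 TPM in Flag-IP, COX8A 9.97 and 10.2 against 23.9 and 22.9, and COX6C 8.66 and 10.2 against 24.3 and 19.3. These 3 membrane subunits all had a little more than double the input TPM. COX7A2 had 5.63 and 6.35 TPM in the inputs and 13.7 and 10.6 TPM in Flag-IP. COX7A2L, which helps to join complexes III and IV in supercomplexes, had 2.60 and 4.76 TPM in the inputs and 8.2 and 9 TPM in Flag-IP. On the median-ratio scale the differences of COX6A1, COX8A, COX7A2 and COX7A2L lay between -0.23 and 0.02, and none of these 4 passed. The median of the 11 genes was -0.13, but it was positive after quantile scaling, with structural RNAs left out, after removal of either length trend, at a filter of 5 TPM and without Flag-IP 1.

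Most isoforms of complex IV known from muscle, lung, testis and other tissues were near or at 0. COX6A2, COX7A1 and COX7B2 were listed at 0 in all 4 libraries. COX4I2 was listed at 0.05 TPM in input 1 and at 0 in the rest, and COX6B2 at 0.02 TPM in Flag-IP 3 and at 0 in the rest. COX8C was low but not at 0, with 0.50 and 0.17 TPM in the inputs and 1.53 and 0.42 TPM in Flag-IP. The ubiquitous forms COX4I1, COX6A1, COX6B1, COX7A2, COX7B and COX8A therefore made up most of the measured level within each isoform group.

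Complex V, the ATP synthase, had 15 of 16 tested members higher in TPM, beside 86.6% of all tested genes. Relative to the typical gene 3 members fell and 0 rose, beside 18.6% and 22.3% of all tested genes. Of tested genes with an input mean of at least 1 TPM, as all 16 had, 27.3% fell and 13.2% rose. At an unadjusted p below 0.05 the members' counts were 3 and 1. Its F1 head is built from the alpha, beta, gamma, delta and epsilon subunits, encoded by ATP5A1, ATP5B, ATP5C1, ATP5D and ATP5E. ATP5B, which carries the catalytic sites, had 22.5 and 24.5 TPM in input 1 and 3 and 64.0 and 54.2 TPM in Flag-IP 1 and 3, and was the member with the highest mean TPM. ATP5A1, at chr18:46080248-46104334, had 15.6 and 15.3 TPM in the inputs and 50.1 and 42.1 TPM in Flag-IP. ATP5C1, the rotating shaft, had 7.03 and 7.97 TPM in the inputs and 23.3 and 17.3 TPM in Flag-IP. These 3 subunits had ratios of means of 2.51, 2.98 and 2.71, with no overlap between groups. ATP5E had 19.5 and 25.3 TPM in the inputs and 54.9 and 49.96 TPM in Flag-IP.

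ATP5D departed from the other F1 subunits. At chr19:1241746-1244826, it had 10.6 and 11.0 TPM in the inputs and 9.86 and 10.1 TPM in Flag-IP, and was the only tested member whose Flag-IP libraries were both below the inputs. On the median-ratio scale it fell by 1.25 ± 0.14 (limma, adjusted p = 0.00178), the largest difference of all members. ATP5B and ATP5E differed by 0.06 ± 0.10 and -0.03 ± 0.12 on that scale and did not pass (limma, adjusted p = 0.669 and 0.876). Relative to ATP5A1 of the same library, ATP5D stood at 0.676 and 0.716 in the inputs and at 0.197 and 0.240 in Flag-IP. The same ratio for ATP5C1 was 0.450 and 0.520 in the inputs and 0.465 and 0.411 in Flag-IP, where the groups overlapped. For ATP5B it was 1.44 and 1.60 against 1.28 and 1.29, and for ATP5E 1.25 and 1.65 against 1.10 and 1.19. None of the 50-base words of ATP5D, COX5B, COX4I1 or ATP5I occurs in another annotated gene. Of the 41 tested members 16 shared no word with another gene and 10 shared at least 10%. Among the 10 were COX6A1 with 44.0%, COX8A with 27.7%, ATP5L with 16.8%, ATP5J2 with 16.5% and UQCR11 with 14.6%.

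**Figure D3:**
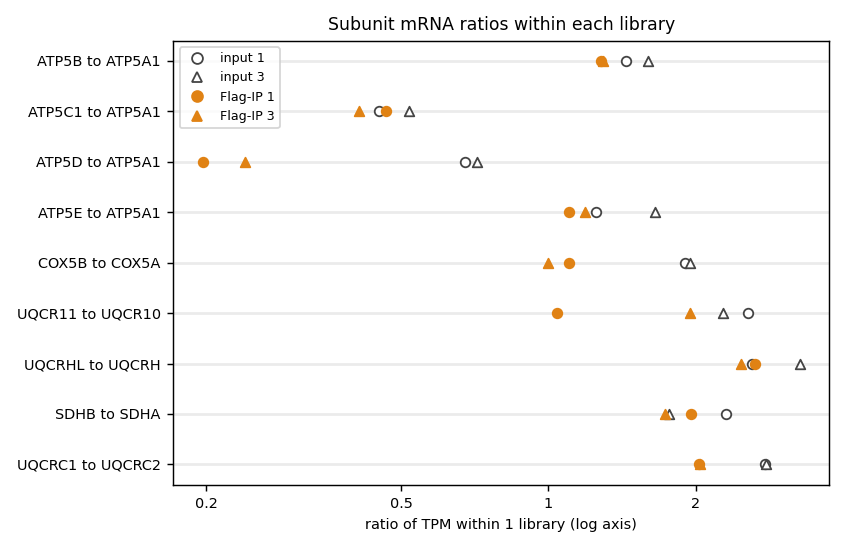
Ratio of TPM of subunit pairs within each library (log axis), with open grey symbols for the inputs and filled orange symbols for the Flag-IP libraries. The ratio of ATP5D to ATP5A1 shows the widest gap, from 0.676 and 0.716 in the inputs to 0.197 and 0.240 in Flag-IP, and that of COX5B to COX5A the next.

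The pairs in these ratios were chosen after their values were seen, so they are descriptions without a test. Of the other pairs, UQCRHL to UQCRH was 2.61 and 3.26 in the inputs and 2.64 and 2.47 in Flag-IP, and SDHB to SDHA was 2.31 and 1.76 against 1.96 and 1.73, both with overlap. UQCR11 to UQCR10 was 2.56 and 2.27 in the inputs and 1.04 and 1.95 in Flag-IP, with no overlap but a wide spread between the Flag-IP libraries.

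The membrane and stalk subunits of complex V mostly followed the typical gene. ATP5G1, ATP5G2 and ATP5G3 encode the c subunit printed earlier. ATP5G2 had 7.45 and 9.68 TPM in the inputs and 16.0 and 14.7 TPM in Flag-IP, and fell by 0.38 ± 0.12 relative to the typical gene (limma, adjusted p = 0.0448). That call passed in 3 of 15 alternatives and with none of the 4 libraries left out (adjusted p from 0.0647 to 0.224). ATP5G1 had 3.84 and 3.41 TPM in the inputs and 5.87 and 6.43 TPM in Flag-IP, a difference of -0.41 ± 0.17 that did not pass (limma, adjusted p = 0.098). ATP5G3 had 4.11 and 4.24 TPM in the inputs and 10.9 and 9.69 TPM in Flag-IP, a difference of 0.03 ± 0.11 (limma, adjusted p = 0.86). All 3 were thus higher in TPM, and the share of ATP5G3 in their summed TPM was 0.267 and 0.245 in the inputs and 0.332 and 0.314 in Flag-IP. The sum itself was 15.4 and 17.3 TPM in the inputs and 32.7 and 30.8 TPM in Flag-IP.

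ATP5I, the e subunit of the membrane part, had 13.2 and 16.7 TPM in the inputs and 26.8 and 22.4 TPM in Flag-IP, and fell by 0.51 ± 0.10 relative to the typical gene (limma, adjusted p = 0.0119). It did not pass without input 3 or without Flag-IP 1 (limma, adjusted p = 0.0677 and 0.0596). ATP5L, the g subunit beside it, had 3.20 and 2.89 TPM in the inputs and 9.96 and 9.44 TPM in Flag-IP, the highest ratio of means of all tested members at 3.19. These proteins lie next to each other in the enzyme, and no test of the difference between them was made. ATP5J2, the f subunit, had 20.9 and 21.2 TPM in the inputs and 55.2 and 43.2 TPM in Flag-IP. The stalk subunits ATP5O, ATP5H, ATP5J and ATP5F1 had input levels between 4.50 and 14.9 TPM and Flag-IP levels between 9.33 and 32.6 TPM, each with both Flag-IP libraries above both inputs and ratios of means between 1.98 and 2.45. Of the 50-base words of ATP5O, 69.0% also occur in an annotated locus that overlaps it, so its level may include reads of that locus. ATP5SL, now named DMAC2, is counted in the complex V values by its symbol alone and was not shown to be a subunit. It had 2.74 and 2.13 TPM in the inputs and 4.29 and 4.23 TPM in Flag-IP. ATP5S and ATP5L2 were below the filter, at 0.09 to 0.64 TPM and 0 to 0.05 TPM. The median of the 16 tested genes was -0.05, and it was positive after quantile scaling, with structural RNAs left out, after removal of the coding length trend and at a filter of 5 TPM.

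The genes that build and regulate these complexes were read from lists of their own. Of 39 assembly factors of complexes II to V in the table, 25 were tested. In TPM 22 were higher and 0 lower (also 22 and 0 at an unadjusted p below 0.05), beside 86.6% and 0.74% of all tested genes. On the median-ratio scale 1 was higher and 5 were lower, beside 22.3% and 18.6% of all tested genes. The median of the 25 was -0.0011, beside -0.01 for all tested genes. Of the 25, 12 had an input mean under 1 TPM and were tested through their Flag-IP values alone, BCS1L among them. BCS1L, which inserts the Rieske protein into complex III, had 0.61 and 0.89 TPM in the inputs and 3.09 and 4.2 TPM in Flag-IP, and rose by 0.64 relative to the typical gene (limma, adjusted p = 0.0367), but did not pass without input 1 or Flag-IP 3 (limma, adjusted p = 0.112 and 0.104). The 5 that fell were SDHAF1 of complex II, by 0.43 (limma, adjusted p = 0.0475), UQCC2 of complex III, by 0.56 (limma, adjusted p = 0.0199), and COA4, TACO1 and SLIRP of complex IV. COA4 fell by 0.67 (limma, adjusted p = 0.0101) and SLIRP, which with LRPPRC keeps mitochondrial mRNAs stable, by 0.50 (limma, adjusted p = 0.0123). The count of lower factors was 0 without Flag-IP 1, and with structural RNAs left out the counts were 7 higher and 3 lower. The shares of all tested genes in those fits are not given, so these counts have no background beside them. The client of BCS1L, UQCRFS1, did not pass on the median-ratio scale.

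Of 11 regulators of mitochondrial biogenesis 7 were tested. Relative to the typical gene 2 rose and 1 fell, beside 22.3% and 18.6% of all tested genes. PPRC1, a coactivator of the PGC-1 family, had 1.13 and 1.27 TPM in the inputs and 7.63 and 6.42 TPM in Flag-IP, a median-ratio difference of 0.95 (limma, adjusted p = 0.0016). PPARGC1B, of the same family, rose by 0.36 (limma, adjusted p = 0.0269); its input values were under 1 TPM, so it was tested through its Flag-IP values alone. ESRRA, the nuclear receptor partner of that family, had 1.00 and 1.21 TPM in the inputs and 1.37 and 1.40 TPM in Flag-IP, and fell by 0.51 (limma, adjusted p = 0.0124), a call that did not pass without Flag-IP 1 (limma, adjusted p = 0.0825). NDUFA4, USMG5, C14orf2 and ATPIF1 are subunits or inhibitors of complexes IV and V under other symbols. All 4 were higher in TPM, as were 86.6% of all tested genes. None of the 4 passed on the median-ratio scale (1 higher and 0 lower by limma at an unadjusted p below 0.05).

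The nearest comparable groups were complex I, which feeds electrons from NADH into the same chain, and the mitochondrial ribosomal proteins, which translate the subunits encoded in mitochondria. Of 35 tested complex I subunits 1 was higher and 11 were lower on the median-ratio scale, with a median of -0.19. Of all tested genes 22.3% were higher and 18.6% lower. Of those with an input mean of at least 1 TPM, 13.2% were higher and 27.3% lower. Among the complex I subunits 1 of 35 had an input mean under 1 TPM, and among the mitochondrial ribosomal proteins 8 of 70. NDUFA4, now placed in complex IV, is among the 35 by its symbol; without it the counts were 1 and 11 of 34 and the median -0.22. Of 70 tested mitochondrial ribosomal proteins 0 were higher and 27 lower by limma (1 and 32 at an unadjusted p below 0.05), with a median of -0.28. Without Flag-IP 1 the lower counts were 6 for complex I, 8 for the mitochondrial ribosomal proteins and 5 for the subunits of complexes II to V. The share of all tested genes without Flag-IP 1 is not given. The subunits of complexes II to V, with 0 and 11 of 41 and a median of -0.16, lay beside complex I in these counts. The difference between the groups was not tested.

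The members have short coding sequences. Their median coding length was 408 bases, against 1455 bases over the 6117 tested protein-coding genes with an annotated coding sequence. Across those genes the median-ratio difference rose with coding length, with a Spearman correlation of 0.59, while across the 41 members it was 0.0047. Genes outside the set with coding sequences of up to 408 bases had a median difference of -0.23, and 31.5% of these 333 genes were lower and 5.41% higher. Genes longer than the longest member, 1992 bases, had a median of 0.34, with 3.76% lower and 48.6% higher among 2128 genes. After the trend with coding length was removed, 7 members were higher and 5 lower. The shares of all tested genes after that step are not given, so these counts have no background beside them. The part of transcript length in the members' differences was not tested beyond these values.

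Base composition and the letters of a common m6A site were read beside length. The Spearman correlation of the median-ratio difference with the GC content of the longest transcript was -0.44 across the 41 members and -0.12 across 6121 protein-coding genes; genes are not independent replicates, and all points share the same 4 libraries. The 11 members that fell had a median GC content of 49.8%, from 38.3% to 63.9%, and the 30 others had 44.98%, from 37.5% to 64.5%. ATP5D, with the largest difference, had 63.9%, and ATP5L, with the highest ratio of means, had 37.5%. The pentamer GGACT, a frequent m6A sequence, was also counted in the longest transcript. It occurred 1.09 times per kilobase in the median member and 0.942 times in the median protein-coding gene. Its correlation with the difference was -0.07 across the members and 0.03 across protein-coding genes. For some members the longest transcript is not the one with the longest coding sequence. For UQCRB they have 5575 and 695 bases and for COX4I1 3946 and 873. The GC and GGACT values may thus not describe the mRNA that was measured.

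**Figure D4:**
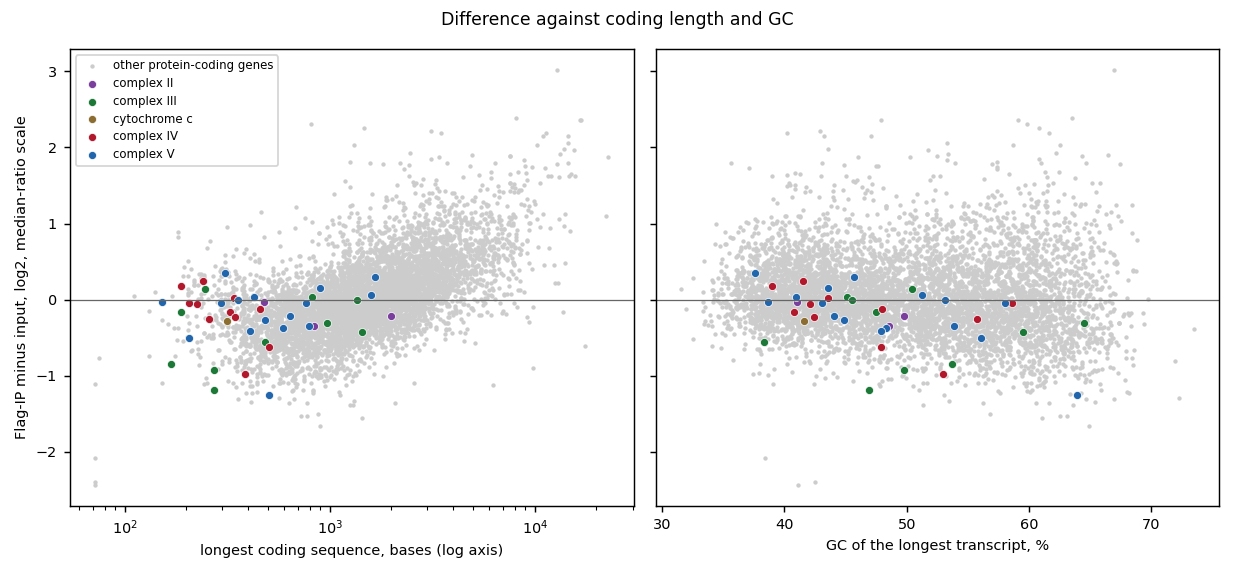
Flag-IP minus input on the median-ratio scale (log2 units) against the longest coding sequence (left, log axis) and the GC content of the longest transcript (right), with other tested protein-coding genes in grey and members coloured by complex. Grey points climb with coding length, with a Spearman correlation of 0.59, while the members, at or under 1992 bases, have correlations of 0.0047 on the left and -0.44 on the right.

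The promoters of 33 tested members were searched in RefSeq windows (GRCh38.p14) of 300 bases around the annotated start, on both strands, beside the same windows of 27305 genes. The other 8 were ATP5B, ATP5D, ATP5G3, ATP5J2, COX6C, CYC1, UQCRB and UQCRHL. The 27305 genes were taken whether or not they were tested here, while the members were all tested. The shares thus come from unlike sets, and the share among tested genes was not measured. CCGGAAG, a sequence bound by GABPA (NRF-2) and other ETS factors, was found in 14 members, or 42.4%, against 10.7% of all windows. The 14 were SDHB, SDHD, UQCR11, UQCRH, UQCRQ, COX4I1, COX6B1, COX5B, COX6A1, COX8A, ATP5I, ATP5H, ATP5J and ATP5L. Of the 14 members with CCGGAAG 6 fell relative to the typical gene, and of the 19 without it 2 fell. ATP5D, UQCRHL and UQCRB, which also fell, are in neither count. Of all tested genes 18.6% fell, and of those with an input mean of at least 1 TPM 27.3% fell. The difference between members with and without the sequence was not tested. A start at a C followed by 4 pyrimidines, the form of mRNAs with a terminal oligopyrimidine tract, was annotated for 8 members, or 24.2%, against 4.04% of all windows. These were UQCRH, COX4I1, COX7C, COX7A2L, ATP5E, ATP5O, ATP5G2 and ATP5L. Of these 8 members 3 fell relative to the typical gene, and of the 25 without such a start 5 fell, which was not tested. COX7C and ATP5L, with positive differences in every alternative, and UQCRH, COX4I1 and ATP5G2, with negative ones, were on the same list.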

How the data were processed

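RNA immunoprecipitation sequencing of Flag-tagged ALKBH5 in NOMO-1 cells gave 2 input and 2 Flag-IP libraries. Per the submitters' processing notes reads were handled with STAR, RSEM and GRCh38; their versions, the annotation and the use of strand are not given in these sources. The authors deposited TPM per gene symbol, and each library sums to 1000000 within rounding. Depth is unknown, so no counting intervals are given and a listed 0 is not a measured absence.

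The test was limma 3.58.1 (R 4.3.3; eBayes, mean-variance trend) on log2(TPM + 1), over genes averaging 1 TPM or more. Tests were two-sided, with Benjamini-Hochberg adjustment over all 6487 genes, on the deposited scale and after median-ratio scaling. There were 2 residual degrees of freedom. On the deposited scale the prior ones were infinite, so each gene's error was the pooled value at its level. On the median-ratio scale they were 4.02, so a gene's own spread also counted. The code was tested on simulated data.

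The members, gene lists and median-ratio scale were chosen with earlier results of these data known, and the members are described by counts and medians without a set test. Statistics are given, per complex, for the 2 most abundant members, the 2 that differed most on the median-ratio scale, the SDH genes, CYCS, paralogue groups, up to 2 genes past the threshold per pathway list, and the bait. UQCR11, UQCRB, ATP5A1, ATP5C1, ATP5L, COX5A, UQCRC2, PPARGC1B and TACO1 were singled out after their values were seen. Coordinates, coding sequences and lengths come from GENCODE 29 (GRCh38); all 50 members matched, ATP5 symbols through older names. The 50-base words of a gene were those of its transcript with the longest coding sequence. They were compared with the annotated transcripts of all other genes.

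Alternatives were no filter and a filter at 5 TPM, a pseudocount of 0.1, no trend, a block for the replicate number, a threshold of 0.1, each library left out, quantile scaling, structural RNAs left out and a length trend removed (loess, span 0.5). Removal of a coding length trend, a crossed block and the complex I list without NDUFA4 were added after seeing the data.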

Additional observations from a re-analysis of the deposited data

How the results depend on the processing

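Of 41 tested members, 35 were higher in TPM, a count that ran from 31 to 35 with each library left out and was 9 of 50 without a filter (34 of 50 at an unadjusted p below 0.05) and 29 of 34 with a filter at 5 TPM. On the median-ratio scale the 11 lower members became 0 without a filter, 5 at a filter of 5 TPM, 5 with quantile scaling, 6 and 5 with a trend in transcript or coding length removed, and 5 to 9 with a library left out, the lowest without Flag-IP 1. The 0 higher members became 5 at a filter of 5 TPM, 2 at an adjusted p below 0.1, 5 with quantile scaling, 6 with structural RNAs left out and 4 and 7 with a length or coding length trend removed. The shares of all tested genes under these alternatives are not given beside the counts. The cause was not tested.

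The replicate number as a block gave 30 higher members in TPM and 9 lower ones on the median-ratio scale, and on the deposited scale CYCS (adjusted p = 0.079), COX4I1 (0.0879), ATP5I (0.0541) and ATP5G1 (0.0593) no longer passed. The correlation of the deviations of same-numbered libraries was -0.19 over 6487 genes, where they did not deviate together, and 0.17 over the 41 members. A crossed block, added after seeing this, gave 36 higher in TPM, and 1 higher and 11 lower on the median-ratio scale.

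The complex medians on the median-ratio scale moved with the scaling. With a filter at 5 TPM they were 0.0774 for complex IV and 0.17 for complex V, and 0.060 for all members. With quantile scaling they were -0.12 for complex III, 0.15 for IV, 0.12 for V and 0.02 for all members. With structural RNAs left out they were -0.0001 for complex II, 0.11 for IV, 0.19 for V and 0.047 for all members. With the length trend removed they were 0.015 for complex II, 0.21 for IV and -0.11 for V, and with the coding length trend removed 0.21 for IV, 0.18 for V and 0.078 for all members. With a library left out complex II ran from -0.27 to -0.047, complex III from -0.42 to -0.27, complex IV from -0.19 to 0.057 and complex V from -0.19 to -0.047.

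Of the 41 tested members 21 took both signs on the median-ratio scale, SDHB of the 11 lower ones among them. Of the members given statistics, those that changed sign with coding length removed were CYCS 0.024, ATP5E 0.43, SDHD 0.30, COX6A1 0.14, COX6B1 0.063, COX7A2 0.078 and COX8A 0.31. With transcript length removed they were SDHB 0.015, SDHD 0.29, COX6A1 0.21, COX6B1 0.11, COX7A2 0.14, COX7A2L -0.005, COX8A 0.34 and ATP5G3 -0.22. With quantile scaling they were ATP5E 0.44, COX6A1 0.15, COX6B1 0.15 and COX8A 0.22, with structural RNAs left out ATP5E 0.22, SDHD 0.19, COX6A1 0.071 and COX8A 0.19, and at a filter of 5 TPM ATP5E 0.18, COX6A1 0.042 and COX8A 0.15. With a library left out the ranges were -0.089 to 0.14 for UQCRHL as deposited; after median-ratio scaling they were -0.0077 to 0.14 for ATP5B, -0.12 to 0.10 for ATP5E, -0.30 to 0.20 for SDHD, -0.36 to 0.10 for COX6A1, -0.28 to 0.28 for COX7A2L, -0.16 to 0.11 for COX8A and -0.066 to 0.13 for ATP5G3.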
